A study of Arabidopsis thaliana with 39 samples.

Results

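Single Arabidopsis thaliana seeds held for 7 days under conditions that induce secondary dormancy were compared with a control in which the differences between seeds had been mixed away. The seeds were Col-0, a self-pollinating laboratory line, combined from more than 1 plant, and had been dry-stored until primary dormancy was lost. They were then placed on water-soaked paper at 30°C in the dark for 7 days (7d). Each library held 32 barcodes, 1 per seed, and 3 libraries were made. For the control (7d pool-split), extracts of crushed 7d seeds were combined, mixed and divided again into aliquots, which were carried through the same steps as single extracts in 3 further libraries of 32 barcodes. A barcode was kept with at least 5000 unique molecular identifiers (UMIs, each marking 1 captured transcript) on nuclear genes. That left 93 of 96 seeds and 96 of 96 aliquots, out of 666 of 672 barcodes in the 21 libraries of the whole time course and control. Both groups shared the genotype, the storage, the 7 days of treatment and the seed stock. The 7d libraries are thus batches from 1 stock of seeds, and p-values over libraries measure the spread between libraries of that stock. The aliquots differed from the seeds in more than the mixing. Crushing seeds 1 at a time cannot add to the spread among aliquots. The share of unspecific UMIs and the summed level of 3 seed coat markers, at low counts, differed as well, as given below. All extracts for the control went into 1 tube, and neither labels nor methods say whether this was done once for the 3 libraries or anew for each. If it was done once, these 3 libraries are divisions of 1 pool, and on that side the p-values hold technical spread only.

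A dry Arabidopsis seed is an embryo with a thin living endosperm inside a dead seed coat, and it is stocked with messenger RNAs left from maturation. Among the most abundant are those of the seed storage proteins (the 2S albumins and the 12S globulins called cruciferins), of late embryogenesis abundant (LEA) proteins, which protect cells during drying, of oleosins, which coat oil bodies, and of small heat shock proteins made late in maturation. Abscisic acid and the transcription factors ABI3 and ABI5 keep this programme on, and DOG1 sets the depth of dormancy. In secondary dormancy, a seed that could germinate returns to a dormant state under stress such as heat in the dark. Seeds of 1 stock differ in whether they do so, which is why the spread between seeds is measured here and not only their mean. The part of differences between mother plants in that spread was not tested.

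The 7d libraries held 934711 to 2962229 UMIs on nuclear protein-coding genes and the pool-split libraries 1426318 to 1969029. A seed had 5053 to 176866 of them (median 48667) and an aliquot 12557 to 108499 (median 47982.5). The share of unspecific UMIs, which fall on no nuclear protein-coding gene, was lower in the seeds, with library medians of 26.2% to 31.2% against 51.4% to 57.3%. The number of unspecific UMIs, on a log10 scale, entered the measure of spread as a covariate. Libraries of 1 group differed by more than sampling noise, with chi-square values per degree of freedom of 1.45 to 3.60. The 5 markers of mature embryo and seed (CRA1, OLEO1, EM1, EM6 and DOG1) together took 80130 to 87261 CPM (UMIs scaled to the protein-coding total of the library) in 7d and 83171 to 90017 in pool-split, the levels of a mature seed. Of the endosperm markers, EPR1 carried most of a sum of 392 to 480 CPM in 7d and 372 to 403 in pool-split, while EXPA2 was at 0 in the second 7d library. The seed coat markers BAN, TT10 and TT12 summed to 1.30 to 12.5 CPM in 7d and 24.5 to 45.8 in pool-split, and BAN and TT12 were at 0 in the first 7d library. These sums rest on 2, 7 and 37 UMIs in 7d and 59, 69 and 35 in pool-split, where TT10 held 48, 47 and 28 of them. The values of BAN overlapped between the groups, and none of the 3 markers was among the genes tested. The part of unspecific UMIs and of seed coat RNA in the results below was not tested.

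A pair of seeds stood apart from all others, seed 4 of the first 7d library and seed 3 of the third. Over the 672 genes with a lowest library mean of at least 5 UMIs, the mean squared residual of a seed from the median profile of its library, taken on a square root scale that gives about 1 for counting noise alone, was 68.2 and 76.6 in them. The next highest seeds of these libraries had 5.30 and 10.4, the highest seed of the second library 5.18, and the highest aliquots 1.90 to 3.07. Neither seed was shallow, with 83767 and 98364 protein-coding UMIs and unspecific shares of 20.5% and 25.9%. Results that rest on them are given with and without them, a choice made after seeing the data.

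Spread was measured for each gene within each library as the variance beyond Poisson counting noise, divided by the squared mean. Its square root, the excess coefficient of variation (excess CV), is the percentage by which seeds differ once counting noise is taken away. To compare libraries of different depth, it was also turned into a mean-matched Fano factor, the ratio of variance to mean that the gene would have if every library had that gene's lowest library mean. A Fano factor of 1 is counting noise alone. The median over the 7471 genes tested was 1.14, 1.11 and 1.05 in the 3 libraries of 7d, and 1.01, 1.03 and 1.01 in those of pool-split. The groups did not overlap, and the mean difference was 0.0823 (1.10 ± 0.0467 against 1.02 ± 0.0108, SD, n = 3 and 3; exact permutation test, two-sided, p = 0.1, the smallest that 3 libraries against 3 allow).

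The share of genes with a larger spread in seeds was highest among abundant messages. Among the 126 genes with at least 20 UMIs per seed in every library, the median excess CV was 19.3%, 12.7% and 15.5% in the 7d libraries and 6.46%, 7.71% and 6.77% in pool-split. In 77 of them (61.1%) all 7d libraries lay above all pool-split libraries, and in 0.794% they lay below. Among all genes tested the same held for 998 genes above (13.4%) and 136 below (1.82%). The share above was 10.9% of the 5308 genes with a lowest mean under 2 UMIs, 14.2% of the 1491 genes from 2 to 5 and 23.4% of the 546 genes from 5 to 20. The size of the spread did not rise with the level in this way. For genes under 2 UMIs the median excess CV was 33.3%, 31.7% and 18.1% in 7d and 9.62%, 14.7% and 2.95% in pool-split. Spread is measured less precisely at low counts, and the part of this in the shares was not tested. For a median gene of the 126, 15 of the 93 seeds lay outside the whole range of the 96 aliquots. Such a count takes in a shift of level between the groups as well as spread. A Fano factor of at least 2 in every 7d library and in no pool-split library was found in 37 genes.

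**Figure D1:**
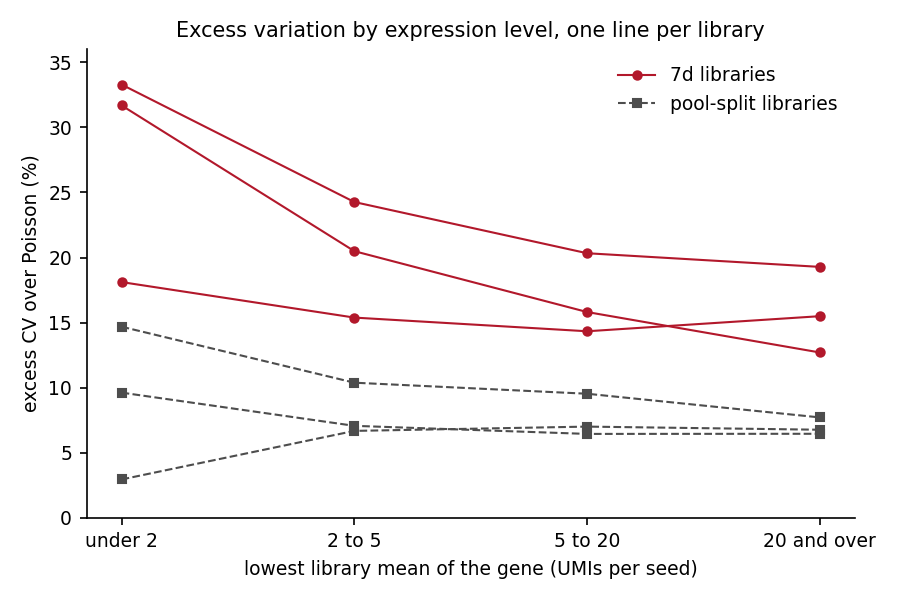
Median excess CV over Poisson noise (y axis, percent) by the gene's lowest library mean in UMIs per seed (x axis, 4 classes), 1 line for each of the 3 libraries of 7d seeds (solid, circles) and of pool-split aliquots (dashed, squares). All 7d lines lie above all pool-split lines in every class, with 12.7% to 19.3% against 6.46% to 7.71% for genes of 20 UMIs and over.

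The genes called for a larger spread in 7d seeds were mostly abundant messages of the storage protein, LEA and small heat shock protein lists. The limma test on the log2 matched Fano factor, with Benjamini-Hochberg adjustment over the 7471 genes, called 11 genes higher (0.147%) and 0 lower. At an unadjusted p under 0.05 there were 727 higher and 56 lower. The 11 were the 2S albumins SESA5 and SESA2, the cruciferins CRU3 and CRA1, the LEA genes EM6 and M17, the small heat shock protein genes HSP17.6A and HSP17.4, the defensin gene LCR67, MLP31 of the Bet v 1 family, and CID4. None of them was called for its mean, where the widest differences were log2 fold changes of -0.87 for CRU3 and 0.71 for MLP31. For CRU3, MLP31, M17, HSP17.4, LCR67 and CRA1 only the limit of 1 on the log2 fold change decided this. Their edgeR adjusted p ran from 3.66e-07 (CRU3) to 0.00787 (CRA1), so their means differed too. For the other called genes it was over 0.05. Without the 2 seeds standing apart, 26 genes were called (0.348% of those tested), all 11 among them. The count depended on single libraries, with 14 genes without the first 7d library and 131 without the second (10 of the 11 in each), 0 without the third, and 2, 3 and 2 without the pool-split libraries in turn. With the residual variance of sctransform as the measure, 18 genes were called higher, 6 of the 11 among them, and 1 lower, the LEA gene AT2G42560.

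**Figure D2:**
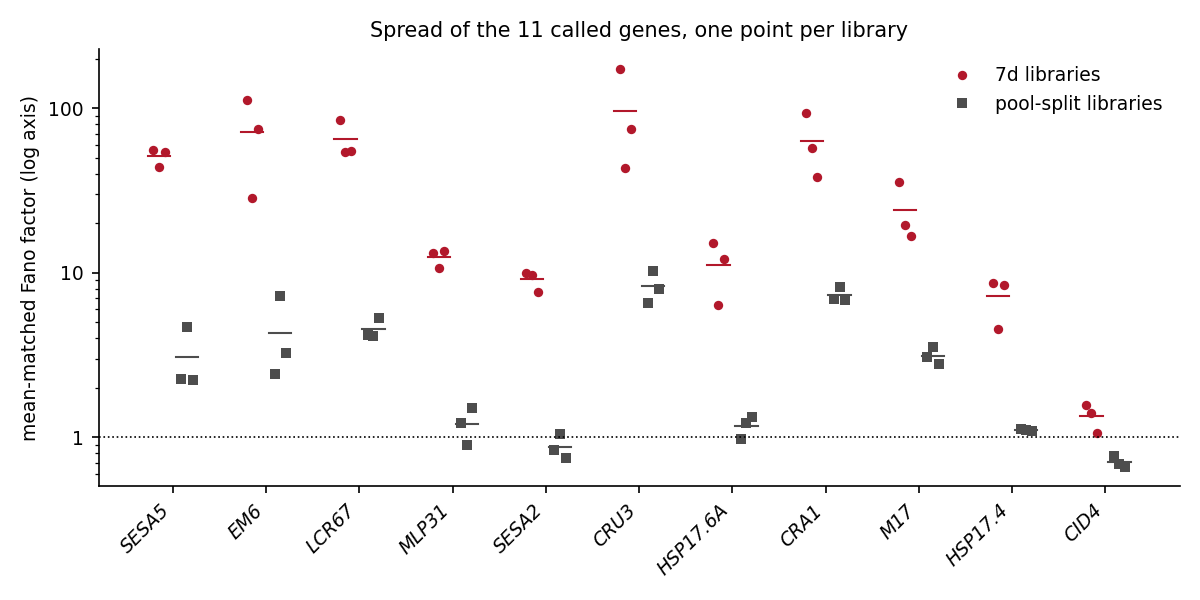
Mean-matched Fano factor (y axis, log scale; the dotted line at 1 is counting noise alone) of the 11 genes called higher in spread, with 1 point per library (circles, 7d; squares, pool-split) and bars for group means. The 7d and pool-split points of a gene do not overlap, and SESA5 has 43.9 to 56.1 in 7d against 2.22 to 4.71 in pool-split.

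Promoters are shown for 6 of the 11 called genes, chosen after their values were seen from the storage protein, LEA and small heat shock protein lists, because motifs of the seed maturation programme and of the heat response can be read in them. Each run holds the 250 bases before the start of the gene model, 5′ to 3′ on the gene's strand, from the RefSeq genome TAIR10.1, whose nuclear coordinates are those of TAIR10. Capitals mark ACGTG, the core of the abscisic acid-responsive element, CATGCA, the RY element bound by ABI3 and its relatives, and GAANNTTC, a heat shock element core, each on either strand and with overlaps allowed.
SESA5, chr5:22239188-22239437, minus strand: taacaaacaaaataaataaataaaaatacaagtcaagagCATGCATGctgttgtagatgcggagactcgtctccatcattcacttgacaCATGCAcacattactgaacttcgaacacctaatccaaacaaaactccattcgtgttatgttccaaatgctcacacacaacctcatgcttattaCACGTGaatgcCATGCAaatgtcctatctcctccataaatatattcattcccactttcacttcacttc
SESA2, chr4:13609091-13609340, plus strand: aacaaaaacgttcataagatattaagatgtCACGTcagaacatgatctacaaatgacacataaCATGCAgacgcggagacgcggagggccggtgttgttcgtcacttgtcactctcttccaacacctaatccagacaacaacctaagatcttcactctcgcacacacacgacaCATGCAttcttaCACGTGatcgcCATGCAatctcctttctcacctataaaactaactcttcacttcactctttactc
CRA1, chr5:17758337-17758586, minus strand: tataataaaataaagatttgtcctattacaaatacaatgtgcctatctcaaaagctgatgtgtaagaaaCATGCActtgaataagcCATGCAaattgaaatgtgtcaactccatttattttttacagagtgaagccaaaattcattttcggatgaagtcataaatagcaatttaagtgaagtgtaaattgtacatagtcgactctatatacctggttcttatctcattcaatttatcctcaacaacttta
EM6, chr2:16780369-16780618, minus strand: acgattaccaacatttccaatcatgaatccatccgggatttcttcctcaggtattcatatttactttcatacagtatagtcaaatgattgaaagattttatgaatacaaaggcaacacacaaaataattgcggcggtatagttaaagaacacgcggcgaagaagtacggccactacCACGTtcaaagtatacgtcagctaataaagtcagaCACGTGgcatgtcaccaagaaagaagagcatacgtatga
HSP17.6A, chr5:3884839-3885088, minus strand: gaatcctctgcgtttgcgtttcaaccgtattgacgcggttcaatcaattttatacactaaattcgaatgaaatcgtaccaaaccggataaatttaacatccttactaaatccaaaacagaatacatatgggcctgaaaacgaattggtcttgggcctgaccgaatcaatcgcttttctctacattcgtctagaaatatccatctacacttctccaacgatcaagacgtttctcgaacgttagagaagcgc
HSP17.4, chr3:16984868-16985117, minus strand: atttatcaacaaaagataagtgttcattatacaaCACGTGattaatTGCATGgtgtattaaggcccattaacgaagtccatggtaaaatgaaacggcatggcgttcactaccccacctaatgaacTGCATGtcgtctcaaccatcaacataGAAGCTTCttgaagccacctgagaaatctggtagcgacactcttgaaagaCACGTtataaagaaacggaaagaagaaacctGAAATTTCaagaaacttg
The abscisic acid element core was present in this window of 6 of the 11 called genes and of 22.9% of 27443 protein-coding genes. The RY element was present in 6 of the 11 and in 8.43% of all windows. The heat shock element core GAANNTTC was present in 1 of the 11, HSP17.4, and in 9.55% of all windows. SESA5 and SESA2 both have CACGTG followed after 5 bases by CATGCA. The window of HSP17.6A holds none of the 3 motifs and overlaps the neighbouring gene AT5G12040. A match describes these letters and does not show that a factor binds there.

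Storage protein messages, which feed the protein reserve laid down during maturation, gave 4 of the 11 calls. SESA5 (AT5G54740, chromosome 5, 22238358 to 22239187) encodes a 2S albumin. Its excess CV was 32.4%, 28.6% and 31.9% in the 7d libraries and 4.90%, 8.41% and 4.82% in pool-split. The log2 difference in matched Fano factor was 4.16 (SE 0.49, limma adjusted p = 0.00103). As CPM of the seed's own protein-coding UMIs (seed CPM), it ran from 3796 through a median of 14298 to 37193 over the 93 seeds, and from 11170 through 15743 to 19248 over the 96 aliquots. The medians were thus close, while 18 seeds lay below every aliquot and 13 above every aliquot.

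SESA2 (AT4G27150, chromosome 4, 13609341 to 13610075), a second 2S albumin, was less abundant and had the largest excess CV of the 11 genes. Its excess CV was 82.0%, 81.1% and 71.0% in 7d, and 0, 6.06% and 0 in pool-split, where 0 means a variance no larger than counting noise. Seeds ran from 0 through a median of 271 to 2566 seed CPM and aliquots from 130 through 323 to 530. Seeds lay outside the aliquots on both sides, 22 above and 15 below. The log2 difference was 3.38 (SE 0.49, limma adjusted p = 0.00409), and 3.33 without the 2 seeds. The 2S albumin genes SESA1 to SESA4 lie close together on chromosome 4 and are alike in sequence, so reads that map to more than 1 of them were dropped by the unique mapping and the split between them is uncertain.

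CRU3 (AT4G28520, chromosome 4, 14087556 to 14089796) and CRA1 (AT5G44120, chromosome 5, 17756238 to 17758336) encode cruciferins, the 12S globulins. The excess CV of CRU3 was 36.1%, 17.9% and 23.6% in 7d and 6.48%, 8.35% and 7.30% in pool-split (log2 difference 3.34, SE 0.57, limma adjusted p = 0.0134). That of CRA1 was 27.2%, 21.2% and 17.2% against 6.89%, 7.55% and 6.80% (3.02, SE 0.51, limma adjusted p = 0.0134). The pair differed in level. The median seed had 36698 seed CPM of CRU3 and the median aliquot 60052, so that 66 of 93 seeds lay below every aliquot, while CRA1 had medians of 35890 and 41595 and 2 seeds below every aliquot. In CRA1 the outlying seeds were high, with 13 above every aliquot and a highest value of 82911.5 against 48227.

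LEA genes gave the calls for EM6 and M17. EM6 (AT2G40170, chromosome 2, 16779552 to 16780368) encodes a group 1 LEA protein of the late embryo and was among the most abundant messages of the seed. Its excess CV was 30.6%, 15.2% and 24.9% in 7d and 3.46%, 7.25% and 4.35% in pool-split (log2 difference 4.01, SE 0.59, limma adjusted p = 0.00409). Seeds had 2460 to 65660.5 seed CPM (median 38217) and aliquots 27076.5 to 45270.5 (median 36768). The lowest 7d values were those of the 2 seeds standing apart, and the spread beyond pool-split, as a CV, was 23.8% with and 16.4% without them. M17 (AT2G41260, chromosome 2, 17206452 to 17207698), a glycine-rich LEA gene, had 32.8%, 24.1% and 22.1% against 8.04%, 8.89% and 7.50% (log2 difference 2.86, SE 0.47, limma adjusted p = 0.0128). Its seeds were mostly low, with 56 of 93 below every aliquot and none above, and medians of 9628 seed CPM in seeds and 14801 in aliquots.

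The called heat shock genes both encode small cytosolic chaperones that hold unfolded proteins. The excess CV of HSP17.6A (AT5G12030, chromosome 5, 3883957 to 3884838) was 38.6%, 23.7% and 34.1% in 7d and 0, 4.77% and 5.84% in pool-split (log2 difference 3.17, SE 0.51, limma adjusted p = 0.011). Seeds had 11.9 to 5158 seed CPM (median 2937) and aliquots 1828 to 3417 (median 2628), and seeds lay outside on both sides, 13 below and 31 above. HSP17.4 (AT3G46230, chromosome 3, 16984118 to 16984867) had 37.5%, 25.6% and 37.0% against 4.93%, 4.41% and 4.15% (log2 difference 2.64, SE 0.50, limma adjusted p = 0.0442). For HSP17.4 more seeds were low than high, with 33 below and 3 above all aliquots. Its medians were 1645 seed CPM in seeds and 1996 in aliquots. Without the 2 seeds, whose values for both genes were the lowest of all, the differences were 2.65 and 2.17 and the calls held.

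The other 3 calls were outside the lists of maturation proteins. MLP31 (AT1G70840, chromosome 1, 26712982 to 26714069) belongs to the major latex protein branch of the Bet v 1 family, whose members bind small hydrophobic ligands. Its excess CV was 47.5%, 42.5% and 48.2% in 7d and 6.54%, 0 and 9.72% in pool-split (log2 difference 3.38, SE 0.48, limma adjusted p = 0.00409). Most seeds were above the control range, 61 of 93, with a highest value of 4787 seed CPM against 1723 among aliquots. The medians were 2159 and 1202. LCR67 (AT1G75830, chromosome 1, 28472357 to 28472898), also named PDF1.1, encodes a plant defensin, a small cysteine-rich antimicrobial protein. It had 40.2%, 32.1% and 32.3% against 7.87%, 7.80% and 9.11% (log2 difference 3.80, SE 0.48, limma adjusted p = 0.0014), with 23 seeds below and 4 above the aliquots. Its medians were 14622.5 seed CPM in seeds and 18553 in aliquots. CID4 (AT3G14010, chromosome 3, 4636063 to 4641149), a protein with an interaction domain for poly(A)-binding protein, differed from the rest. Its matched Fano factor was 1.58, 1.41 and 1.07 in 7d and 0.776, 0.688 and 0.665 in pool-split, below counting noise (log2 difference 0.92, SE 0.18, limma adjusted p = 0.0479). It was called in 3 of 20 alternative analyses, against 10 to 17 of 20 for the other 10 genes.

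**Figure D3:**
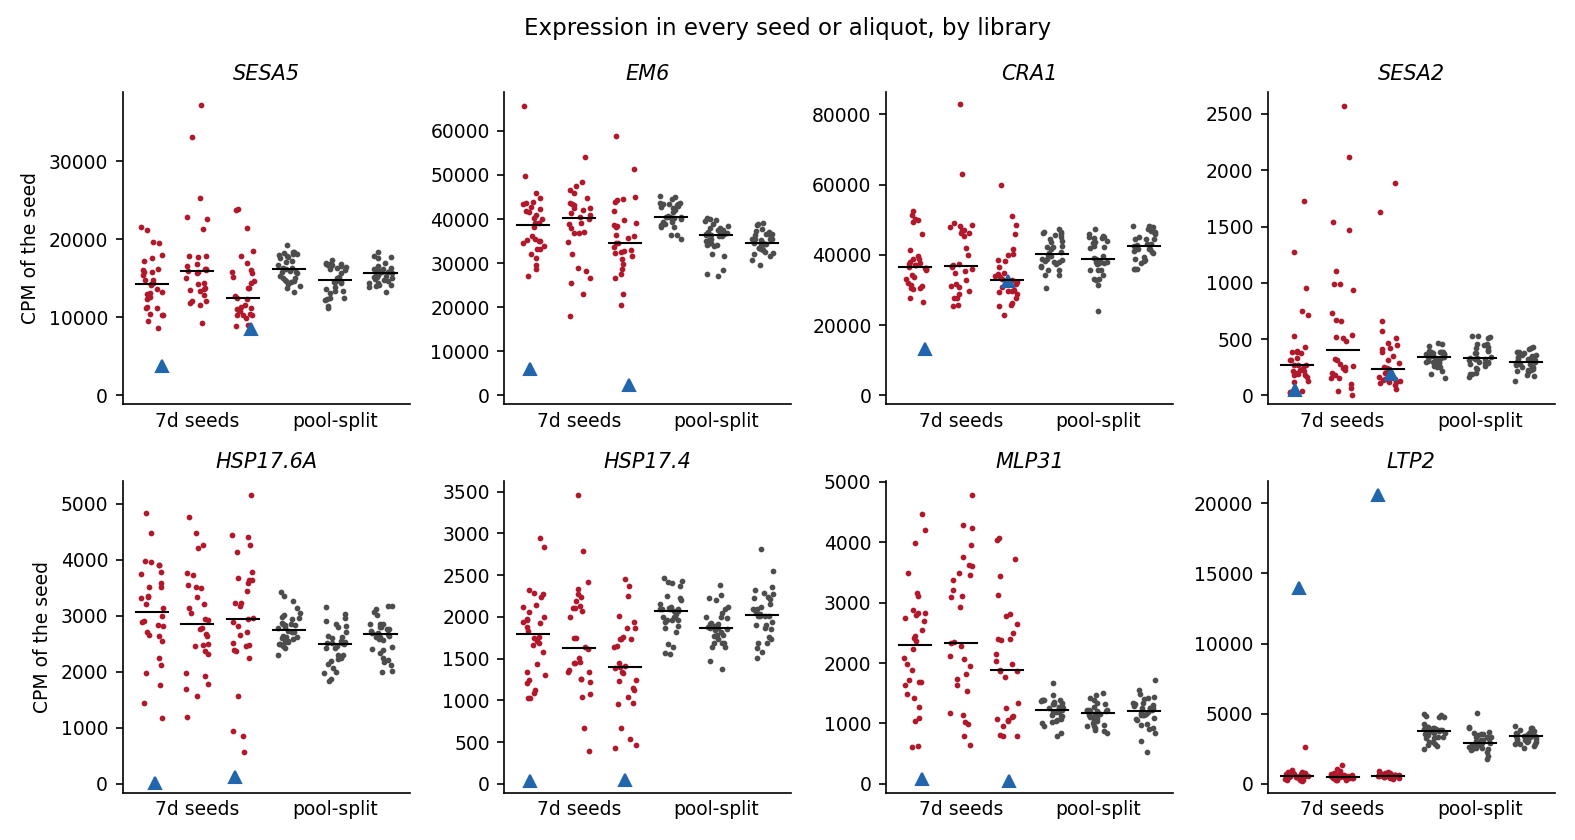
Seed CPM (y axis, UMIs scaled to the protein-coding total of the same seed) of 8 genes in every kept seed of the 3 libraries of 7d (left columns of each panel) and every aliquot of the 3 pool-split libraries (right columns), with bars for library medians and triangles for the 2 seeds standing apart. SESA2 reaches 2566 in seeds against 530 in aliquots, and LTP2 is 13932 and 20607 in the 2 seeds, above all other seeds and aliquots.

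Over seeds, the called genes did not vary as 1 block. Rank correlations were computed on residuals from the fitted level of each library (Spearman's rho, 93 seeds and 96 aliquots, as a description: seeds of a library share depth and preparation, and counts of 1 seed share a total). HSP17.6A and HSP17.4 had a rho of 0.87 over seeds, 0.86 without the 2 seeds and -0.01 over aliquots. SESA2 and CRA1 had 0.59, 0.57 and 0.21. SESA2 and CRA1 ran opposite to the heat shock genes, with -0.45 between SESA2 and HSP17.6A (-0.57 without the 2 seeds, 0.27 over aliquots) and -0.35 between CRA1 and HSP17.6A (-0.48 and 0.20). The other called storage protein genes did not, with 0.28 between SESA5 and HSP17.6A (0.22 and 0.26) and -0.08 between CRU3 and HSP17.6A (-0.19 and 0.15). EM6 went with HSP17.6A (0.50, 0.41 and 0.25) and against SESA2 (-0.34, -0.43 and 0.18). LCR67 and MLP31 had 0.54 over seeds and 0.32 over aliquots. Several pairs of abundant called genes had a higher rho over aliquots than over seeds. CRU3 and CRA1 had 0.58 over seeds and 0.87 over aliquots, and SESA5 and CRA1 0.21 and 0.70. SESA5 had 0.36 and 0.63 with CRU3, and 0.12 and 0.59 with LCR67. LCR67 had 0.12 and 0.65 with CRU3, and -0.18 and 0.64 with CRA1. Of the 55 pairs, 5 were below -0.3 over seeds and 0 over aliquots, whereas 11 and 16 were above 0.3.

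**Figure D4:**
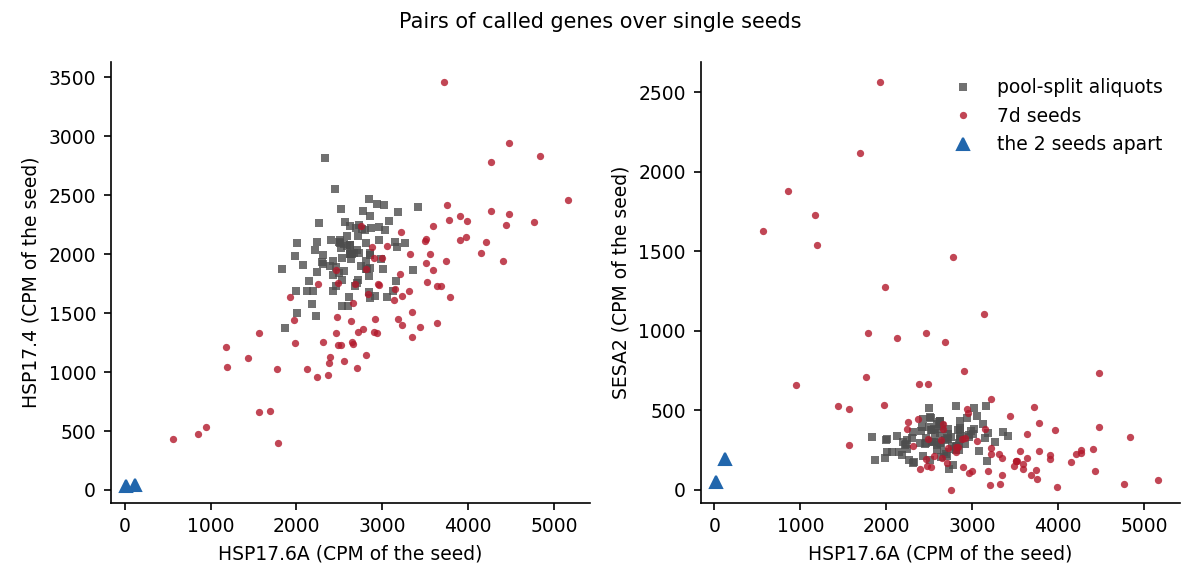
Seed CPM of HSP17.4 (left) and of SESA2 (right) on the y axis against HSP17.6A on the x axis, with 1 point per 7d seed (circles), pool-split aliquot (squares) and the 2 seeds standing apart (triangles). The seeds form a rising band with HSP17.4 (rho 0.87) and a falling one with SESA2 (rho -0.45, computed on residuals within libraries), while the aliquots form a cloud with rho of -0.01 and 0.27.

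The genes most like HSP17.6A over seeds were looked up among the 671 others with a lowest library mean of at least 5 UMIs, over the 91 seeds left without the 2, a search made after seeing the data. After HSP17.4 came HSP70B (rho 0.76 over seeds and 0.17 over aliquots), HSP23.6-MITO (0.74 and -0.13), HSP22.0 (0.72 and 0.07) and the defensin gene PDF2.1 (0.64 and 0.02). The first 4 encode chaperones of the cytosol, mitochondrion and endoplasmic reticulum. Their rho within single 7d libraries was 0.62 to 0.88. In all, 15 genes were over 0.5 with HSP17.6A in seeds and 0 in aliquots. SESA2 was the gene most opposed to it, followed by CRA1 and the protease inhibitor gene CYS2 (-0.45).

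For SESA2 the nearest genes were the cruciferin genes CRA1, CRU2 (0.48 in seeds, 0.00 in aliquots) and, further down, CRU3 (0.39 and 0.23). The dehydrin gene LEA (AT2G21490) was among the most opposed at -0.54, against 0.15 in aliquots. MLP31 went with its relative AT1G14950 (0.65 and 0.40), with BGLU19, a beta-glucosidase gene (0.63 and 0.28), and with TPX2, a peroxiredoxin gene (0.55 and 0.34). It was opposed to EM1 (-0.47 and 0.03) and OLEO4 (-0.40 and 0.16). EM6 went with OLEO1 (0.55 and 0.10).

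Gene lists of seed functions were read beside the 13.4% of all genes tested that lay above pool-split in every library. The lists were chosen with earlier results of these data known. Of the storage protein genes 7 of 13 did so (53.8%), of the oil body genes 4 of 8 (50.0%), of the LEA genes 15 of 23 (65.2%), of the heat shock genes 7 of 15 (46.7%), and of the Bet v 1 family genes 3 of 4 (75.0%). These lists also held abundant genes, with a median lowest library mean of 13.3, 42.8, 44.7, 5.37 and 30.6 UMIs, against 1.20 for all genes. The share above the control rose with the mean as described. It was 23.4% for all genes from 5 to 20 UMIs and 61.1% for those with at least 20. The median log2 difference was 0.89 for storage protein, 0.89 for oil body, 0.67 for LEA, 0.42 for heat shock and 1.73 for Bet v 1 family genes, and 0.12 over all genes. Without the 2 seeds these medians were 0.61, 0.69, 0.45, 0.28 and 1.36, against 0.10.

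Among oil body genes OLEO1, the main oleosin, came nearest to a call, with an excess CV of 26.9%, 16.6% and 15.5% in 7d and 3.92%, 7.50% and 2.73% in pool-split (log2 difference 2.14, SE 0.53, limma adjusted p = 0.191, and 0.00186 without the 2 seeds). The vicilin-like gene PAP85 (log2 difference 2.30, limma adjusted p = 0.0702) and AT1G14950 of the Bet v 1 family (2.50, limma adjusted p = 0.0702) also passed without the 2 seeds, at 0.00137 and 0.000229. Of 20 alternative analyses, 4 called OLEO1, 8 called PAP85 and 7 called AT1G14950. These genes were chosen after their values were seen. Of the photosynthesis genes 1 of 13 (7.69%) lay above pool-split in every library.

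Genes of translation, which build and serve ribosomes, were high in the 2 seeds. Of 280 tested, 0 were called, with 86 at an unadjusted p under 0.05 in the higher direction and 0 in the lower, and 74 (26.4%) lay above pool-split in every library. Over all 7471 genes these were 727, 56 and 13.4%. Their median log2 difference was 0.43 with and 0.14 without the 2 seeds. In these seeds genes of translation took 10.4% and 9.69% of protein-coding UMIs, against 2.03% to 4.90% in the other 7d seeds and 1.40% to 2.65% in aliquots. The eEF1A gene AT5G60390, an elongation factor, had 2543 and 2745 seed CPM in them, and its library medians were 643 and 652.

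What else set the 2 seeds apart is given for genes chosen after their values were seen. Each was the highest of its library for LTP2, a lipid transfer protein gene (13932 and 20607 seed CPM, with library medians of 561 and 588), DI21, a drought-induced gene (1755 and 986 against 74.6 and 108), ABR, a LEA gene (2220 and 1840 against 0 and 8.75), and also for TI1, given below. ICL, isocitrate lyase of the glyoxylate cycle that turns stored oil into sugar, had 18014 and 19428 against 5918 and 5506. Several messages with a high library median were low in both. HSP17.6A had 11.9 and 122 seed CPM against 3072 and 2937, HSP17.4 35.8 and 40.7 against 1797 and 1401, and MLP31 83.6 and 40.7 against 2306 and 1887. TPX2 had 895 and 274 against 19882 and 21911, and EM6 was at 5945 and 2460 where the library medians were 38703 and 34470.

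These seeds also differed from each other. EM1, the second gene of the EM family, was the lowest of its library in one (3414 seed CPM) and the highest in the other (12962). M17 was at 1850 in one and 11996 in the other, where the library medians were 9090 and 10930. CRA1 was at 13323 and 32573, against medians of 36415 and 32883. In the second seed M17 and CRA1 were thus near the median of its library, and in the first both were the lowest. The matched Fano factor of LTP2 was 87.3 and 122 in the libraries that held these seeds and 1.60 in the other 7d library, against 1.10 to 1.41 in pool-split (log2 difference 4.36, SE 1.16, limma adjusted p = 0.305, and 0.95 without the 2 seeds). For ICL the values were 50.5, 5.44 and 34.2 against 2.19 to 2.51 (3.16, SE 0.65, limma adjusted p = 0.0702, and 1.25 without the 2 seeds).

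None of the regulators of dormancy named here was called for its spread. DOG1 had library means of 0.781, 0.467 and 1.61 UMIs per seed in 7d and 1.28, 1.69 and 1.19 in pool-split, with matched Fano factors of 1.45, 0.780 and 1.03 against 1.18, 1.17 and 1.00 (log2 difference -0.08, SE 0.21, limma adjusted p = 0.925). It was at 0 in 51 of 93 seeds and 32 of 96 aliquots. The mean of DOG1 was lower in 7d, at a log2 fold change of -0.95 (SE 0.22, edgeR adjusted p = 0.00286), and only the limit of 1 kept it from being called. Without the first pool-split library it was called at -1.13, and without the second it was at -0.73 (edgeR adjusted p = 0.0516), not called. For MFT (AT1G18100, listed as E12A11), a phosphatidylethanolamine-binding protein that acts in abscisic acid responses of the seed, the excess CV was 43.3%, 28.2% and 34.7% in 7d against 0, 13.2% and 9.05% in pool-split. The groups did not overlap, but the test did not call it (log2 difference 0.82, SE 0.28, limma adjusted p = 0.363). SOM, a zinc finger regulator acting below PIL5 in light control of germination, had 0.27 (SE 0.28, limma adjusted p = 0.76). The DELLA genes RGA and GAI, repressors of gibberellin responses, had 0.24 and 0.06, and XERICO, which promotes abscisic acid accumulation, had 0.05, with limma adjusted p of 0.619, 0.948 and 0.964. Of 19 abscisic acid signalling genes tested, 4 (21.1%) lay above pool-split in every library, of 12 dormancy regulators 4 (33.3%) and of 9 gibberellin genes 3 (33.3%), against 13.4% of all genes and 14.2% of those with a lowest mean of 2 to 5 UMIs. No gene of these 3 lists was called without the 2 seeds.

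ABR, a LEA gene that responds to abscisic acid, depended on single seeds. Its excess CV was 301%, 65.9% and 390% in 7d and 3.91%, 0 and 0 in pool-split. It was at 0 in 55 of 93 seeds and in none of the aliquots, which had 14.3 to 179 seed CPM, and 62 seeds lay below every aliquot. The log2 difference in spread was 1.44 (SE 0.51, limma adjusted p = 0.379), and 0.13 without the 2 seeds. Its mean over libraries was not called, with a log2 fold change of -0.30 (SE 0.28, edgeR adjusted p = 0.502), whereas without the 2 seeds it was called lower in 7d at -3.13 (edgeR adjusted p = 3.52e-15).

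Mean expression was compared after adding up the UMIs of all kept seeds within each library (edgeR quasi-likelihood test, library CPM scaled by TMM over the genes tested). With the limits set at 0.05 for the adjusted p and at 1 for the size of the log2 fold change, 32 genes were higher in 7d (0.428%) and 96 lower (1.28%). Without the 2 seeds 20 were higher, all among the 32, and 102 lower, of which 92 were among the 96. The genes called differed in how they varied with unspecific UMIs. The median correlation of a gene's counts with them was 0.0958 for the genes called lower, -0.191 for those called higher and -0.119 for all genes. Of the 455 genes left out for a correlation over 0.3, 233 were lower and 0 higher in 7d when they were put back. The part of unspecific UMIs in these fold changes was not tested.

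The largest log2 fold change towards pool-split was that of AT1G28400, annotated as a GATA zinc finger gene, with 8.10, 1.15 and 4.58 library CPM in 7d and 117, 99.4 and 94.6 in pool-split (log2 fold change -4.36, SE 0.23, edgeR adjusted p = 4.92e-15). GSTU11, a glutathione transferase gene, had 2.70, 3.46 and 4.93 against 79.7, 81.7 and 85.4. TI1, a trypsin inhibitor gene, had 23.0, 4.61 and 16.9 against 198, 165 and 190. AT3G21351, a gene of unknown function, scpl20, a serine carboxypeptidase-like gene, and PDF1.4, a defensin-like gene, had log2 fold changes of -3.63, -2.69 and -2.54. For GSTU11 77 of 93 seeds were at 0 and 8 of 96 aliquots, and for AT1G28400 77 and 4. TI1 was at 0 in the median seed of either library, but had 239 and 285 seed CPM in the 2 seeds standing apart.

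Of the 9 gibberellin genes tested, 4 were called lower, against 1.28% of all genes, and 0 higher, namely the biosynthesis gene GA20OX2 (log2 fold change -1.65, SE 0.25), the catabolic gene GA2OX2 (-1.12, SE 0.15), and the DELLA genes RGA (listed as RGA1, -1.05, SE 0.22) and GAI (-1.01, SE 0.22). GA20OX2 had 8.10, 5.76 and 16.2 library CPM in 7d and was not called in a fit of all 21 libraries (edgeR adjusted p = 0.0742). GA2OX2 was at -0.94, not called, with no filter on low counts. The DELLA calls were close to the limit of 1. Without the third 7d library GAI was at -0.52 and RGA at -0.72, without the second at -0.93 and -0.88, and without the third pool-split library at -0.97 and -0.98, none of them called. Without the first 7d library GAI was at -1.65, and DESeq2 called neither gene (DESeq2 adjusted p = 0.266 for GAI and 0.151 for RGA). The gibberellin-regulated GASA2, chosen after its values were seen, had 646, 745 and 569 library CPM in 7d and 3550, 3220 and 3167 in pool-split (log2 fold change -2.35, SE 0.10, edgeR adjusted p = 3.76e-17). CRU2, a cruciferin gene, was lower at -1.88 (SE 0.14), and LTP2 at -1.86 (SE 0.17), although the 2 seeds held its highest values. Without them LTP2 was at -2.68.

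The gene with the largest log2 fold change towards 7d, AT1G68240, a basic helix-loop-helix factor gene, had 157, 204 and 166 library CPM in 7d and 29.5, 36.1 and 32.6 in pool-split (log2 fold change 2.41, SE 0.15, edgeR adjusted p = 1.24e-13). SESA3, a 2S albumin gene beside SESA2, had 691, 874 and 764 against 216, 185 and 266 (1.80, SE 0.11). GRP7, an RNA-binding protein gene under the circadian clock, had 1141, 884 and 1094 against 360, 356 and 362 (1.54, SE 0.10). The nitrate transporter gene NRT2.5 had 1.74 (SE 0.28), AT5G11420, of unknown function, 1.64 (SE 0.23), and WRKY11, a transcription factor gene, 1.44 (SE 0.27). WRKY11 was at 0.71 without the third 7d library and at 1.34 in DESeq2 (adjusted p = 0.0643), called in neither. The clock-related genes FKF1 and ELF4, chosen after their values were seen, had 1.42 and 1.36, and FKF1 was at 0.86, not called, without the third 7d library. In a fit of all 21 libraries neither WRKY11 (edgeR adjusted p = 0.0944) nor FKF1 (edgeR adjusted p = 0.0790) was called. Of the genes of translation 6 of 280 were called higher, against 0.428% of all genes, and 0 lower. Of the 32 genes called higher, 14 (43.8%) had both of the 2 seeds as the highest of their libraries, as had 10 of the 96 called lower (10.4%) and 4.59% of all genes tested.

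**Figure D5:**
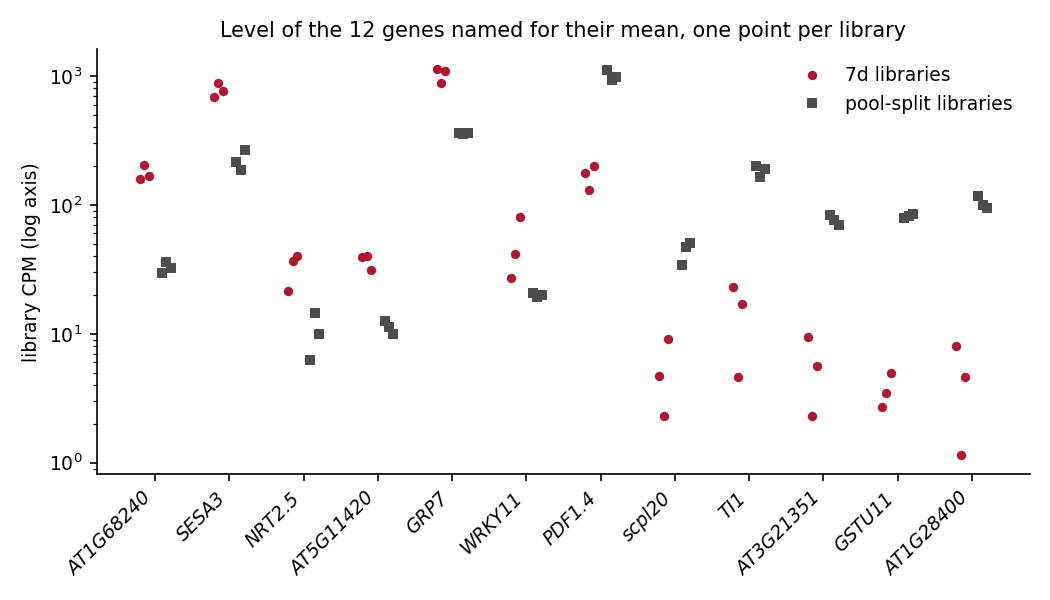
Library CPM (y axis, log scale) of the 12 genes named for the largest differences in mean, with 1 point per library (circles, 7d; squares, pool-split), in order of log2 fold change from 2.41 for AT1G68240 to -4.36 for AT1G28400. The groups do not overlap in any of the 12 genes.

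The other time points of the course, which share the single-seed handling of 7d, put its spread in place as a description. Over 645 genes measured in all 21 libraries, the median excess CV was 23.6% to 27.2% at 1 h, 16.9% to 17.9% at 1 day, 20.8% to 26.2% at 3 days, 21.5% to 25.8% at 5 days, 14.6% to 20.1% at 7 days, 13.6% to 31.9% after 24 h of recovery and 6.43% to 8.41% in pool-split. SESA2 ran from 143% to 266% at 1 h and from 39.7% to 79.6% at 1 to 5 days, against 71.0% to 82.0% at 7 days. HSP17.6A ran from 22.9% to 25.3% at 1 h, from 36.4% to 158% at 1 day, from 50.5% to 73.2% at 3 and 5 days, from 23.7% to 38.6% at 7 days and from 74.4% to 79.7% after recovery. The level of HSP17.6A was low at 1 day, with 66.2, 106 and 138 CPM, against 2940 to 3051 at 7 days. The 158% was that of the second library at 1 day, and the others had 49.1% and 36.4%. After recovery HSP17.6A was at 553, 466 and 453 CPM. MLP31 ran from 42.5% to 70.8% over all time points.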

How the data were processed

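Single seeds were crushed and their RNA barcoded with oligo(dT) primers for 3′ end sequencing. The authors deposited whole-number counts of UMIs for every gene in every seed, made by mapping reads uniquely to TAIR10 with STAR 2.7.8a and counting strand-specific UMIs on Araport11 genes with BRBseqTools. Reads shared by near-identical genes are lost in this step.

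From these counts, barcodes with at least 5000 UMIs on nuclear genes were kept. Tests covered 7471 nuclear protein-coding genes whose mean reached 1 UMI per barcode, with a correlation of at most 0.3 with unspecific UMIs over 666 barcodes (7926 genes before that limit). For the spread, a Poisson regression per gene and library used the seed's protein-coding UMIs as offset and log10 unspecific UMIs as covariate. The variance beyond Poisson gave the matched Fano factor, with a floor of 0.1, and log2 values were tested with limma 3.58.1 (trend, robust). For the mean, counts summed by library were tested with edgeR 4.0.16 (TMM, quasi-likelihood), with limits of 0.05 on the adjusted p and of 1 on the size of the log2 fold change. R 4.3.3, DESeq2 1.42.0 and sctransform 0.4.2 were used for alternatives. Scripts were tested on simulated data. With 3 libraries a group, an exact permutation test cannot go below p = 0.1.

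Named genes were those called for spread with no overlap between groups, the 6 largest called log2 fold changes each way with at least 20 library CPM and no overlap, up to 3 called members of each list, and DOG1, ABR, MFT, SOM, RGA, GAI and XERICO. Other genes named were chosen after their values were seen. The groups, genes and lists were chosen with earlier results of these data known. Sequences and coordinates came from RefSeq TAIR10.1.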

Additional observations from a re-analysis of the deposited data

How the results depend on the processing

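The spread test called 11 genes higher in 7d. It called 7 without unspecific UMIs in the regression, 18 without the highest seed of each gene and library, 23 with a mean of at least 5 UMIs, 0 of the genes without a filter on low counts, 18 with sctransform residual variance, and 0 on the square root of the excess squared CV. Leaving out 1 library in turn gave 0 to 131 genes, and leaving out the 2 seeds standing apart gave 26. Leaving out these 2 seeds and the square root measure were chosen after seeing the data. The causes were not tested. Of 220 values for the 11 genes under alternatives, 136 kept their call, 84 lost it and 0 reversed. For the mean, 96 genes were lower in 7d and 32 higher. Lower genes numbered 325 with no limit on the correlation, 569 with filterByExpr and 1884 with no filter on low counts, where more genes were tested, and 89 to 136 when 1 library was left out. Higher genes numbered 79 with filterByExpr, 134 with no filter, 20 without the 2 seeds and 29 to 46 when 1 library was left out. For the 12 genes named for their mean, 189 of 192 values kept their call and 0 reversed. The median difference in matched Fano factor of 0.0823 ran from 0.0640 to 0.109 when 1 library was left out and was 0.167 with a mean of at least 5 UMIs. Same-numbered libraries did not deviate together, so their numbers do not pair them. With a replicate block, the spread test called 5 genes, the mean test 96 lower and 26 higher, and the paired exact permutation test of the median difference of 0.0823 gave p = 0.25. Of the genes tested 71.0% had a lowest library mean under 2 UMIs, and with seeds thinned to 20000 UMIs the spread test called 11 genes.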
